A study of Mus musculus with 2 samples.

Results

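The cells described here are proximal enterocytes that carried transcripts of Reg1, a secreted lectin-family protein, or Ctrb1, the digestive zymogen chymotrypsinogen B. Members were chosen by the measured levels themselves, in units per 10,000 of a cell's total (below, "units"). A member had Fabp1 of at least 100 units, Fabp6 and Afp under 10 units each, and Reg1 and Ctrb1 together of at least 2 units. It also had no Mki67 or Top2a, and the goblet genes Muc2, Fcgbp, Spink4, Clca1 and Zg16 summed to under 10 units. The rule was met by 413 of 11053 kept cells, a share of 3.74% (95% exact Clopper-Pearson interval 3.39 to 4.11%). Because these genes chose the cells, every difference below describes the class and none was tested.

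The study profiled single cells of small intestine epithelium from Control and Tet3KO mouse embryos at E18.5, shortly before birth, of strain C57BL6/J. Tet3, a dioxygenase that oxidises methylated cytosine, was deleted throughout the body of the Tet3KO embryos. The allele lacked exon 5, which shifts the reading frame to a stop in exon 6, and came from a targeted embryonic stem cell clone backcrossed for at least 5 generations. Each genotype was 1 library pooled from the sorted epithelium of 2 embryos and fixed in 90% methanol before droplet capture with a 3' kit. One table held the cells of both libraries. Its barcodes ended in 0 or 1 (below, set 0 and set 1), with 5933 and 5938 cells, and nothing used here tied either set to a genotype. Control and Tet3KO could therefore not be compared, and the table counts as 1 sample. The sets stand side by side below as the one internal comparison available. Of the barcodes, 818 occurred in both sets and their rows of set 1 were dropped, 28 of which met the rule. Of the members, 22 had such a shared barcode.

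Enterocytes are the absorptive cells of the villus, and their gene programme varies along the length of the small intestine. Transcription factors such as Pdx1 and Onecut2 mark its proximal end, where calcium and iron are taken up. Bile acid genes such as Fabp6 mark the ileum, and before weaning the distal enterocytes take up and digest milk macromolecules in large lysosomes. Reg1 and Ctrb1 are best known as products of pancreatic acinar cells, and Reg1 is also made in the upper intestine.

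Reg1 lies on mouse chromosome 6 (78422711 to 78428667, plus strand, GRCm38, GENCODE vM21), beside Reg2 (78395623 to 78408106). Ctrb1 lies on chromosome 8 (111686519 to 111691010, minus strand). Cym, the non-rule gene with the highest ratio in the class, lies on chromosome 3 (107211293 to 107221732, minus strand). The 250 bases before the RefSeq starts of Reg1, Ctrb1 and Cym are shown because the first pair chose the class and Cym led its other genes. They are written 5′ to 3′ on the strand of the gene and capitals mark matches to the 5 short motifs spelled out after them.
Reg1, chr6:78425733-78425982, plus strand, GRCm38.p6: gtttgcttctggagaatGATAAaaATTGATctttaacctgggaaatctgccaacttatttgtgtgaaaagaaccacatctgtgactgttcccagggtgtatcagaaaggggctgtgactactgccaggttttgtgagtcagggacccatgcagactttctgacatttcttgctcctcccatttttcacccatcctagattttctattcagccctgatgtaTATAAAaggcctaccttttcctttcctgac
Ctrb1, chr8:111691011-111691260, minus strand, GRCm38.p6: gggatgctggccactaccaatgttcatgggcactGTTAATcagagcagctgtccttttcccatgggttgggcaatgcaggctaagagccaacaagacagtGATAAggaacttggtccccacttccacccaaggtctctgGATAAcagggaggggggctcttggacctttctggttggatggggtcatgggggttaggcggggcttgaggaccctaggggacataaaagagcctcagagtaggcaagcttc
Cym, chr3:107221733-107221982, minus strand, GRCm38.p6: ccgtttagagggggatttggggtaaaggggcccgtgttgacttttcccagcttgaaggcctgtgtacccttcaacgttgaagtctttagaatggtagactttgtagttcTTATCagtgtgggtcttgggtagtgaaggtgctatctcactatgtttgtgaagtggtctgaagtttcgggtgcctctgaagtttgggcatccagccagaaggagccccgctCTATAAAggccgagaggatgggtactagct
Searched on both strands, GATAA, the core bound by GATA factors, occurred in all 3 windows, once upstream of Reg1 and Cym and at 2 places upstream of Ctrb1. It also occurred in 22.6% of the 32817 RefSeq windows of the same length. ATTGAT, a core of Onecut sites, matched in the Reg1 window, 226 to 221 bases before the start, and in 6.73% of all windows. GTTAAT, one arm of the HNF1 site, matched in the Ctrb1 window, 216 to 211 bases before the start, and in 6.44% of all windows. TATAAA, the TATA box, matched 30 to 25 bases before the start of Reg1 and 29 to 24 before that of Cym, and in 12.4% of all windows. TTTATNG, a core of CDX sites, matched in the Cym window on the minus strand, where it overlapped the TATA box, and in 9.81% of all windows. The RefSeq start of Reg1 lies inside the longer GENCODE gene. The windows of S100g, Cldn15, Lgmn and Gpx3 were searched as well and had no match to any of the 5 motifs. The matches are letters in a window, and binding was not measured.

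The cells were enterocytes by their other transcripts, as the label says. Alpi, the brush border alkaline phosphatase, averaged 2.81 units against 3.06 in proximal enterocytes without the Reg1 and Ctrb1 minimum. Vil1, which bundles microvillus actin, averaged 2.71 against 2.85 units. Of 8 enterocyte markers other than the rule gene, however, 7 were lower in the class and 1 higher (median log2 ratio -0.37), and the whole marker list summed to 711 against 958 units. The marker Onecut2 averaged 1.62 units in the class, 0.943 in the other proximal cells and 0.193 in mid-region enterocytes, the cells with Fabp1 and with at least 10 units of Fabp6. Pdx1, which directs duodenal and pancreatic identity, averaged 0.174, 0.0734 and 0.00978 units in the same order. Both factors were highest in the class and lowest in the mid-region cells. Proximal regulators were not raised as a list. Of 12 listed, 4 were abundant enough to compare with the other proximal cells, 2 higher and 2 lower (median log2 ratio -0.04). Onecut2 and Hnf4g (0.740 against 0.701 units) were higher. Gata6 (1.24 against 1.40) and Hnf4a (0.761 against 0.851) were lower. Distal and hindgut regulators were also split, 2 higher and 2 lower (-0.05). For Onecut2 the ratio over the other proximal cells was 0.90 in set 0 and 0.66 in set 1 on the log2 scale. It was 1.31 and 0.99 for Pdx1.

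Other cell types left little trace. Of 17 pancreatic acinar markers listed, only 7 were present in the data, and the rest could not be examined. Of these 7, 4 had no UMI in the class, Cpa1 among them, and all 7 summed to 0.0253 units against 0.0311 in the other proximal cells. Both tuft and all 4 mesenchymal markers measured had no UMI. The 7 goblet markers summed to 0.294 against 0.232 units, with 0.292 in set 0 and 0.296 in set 1, and the rule itself capped 5 goblet genes. The 7 enteroendocrine markers summed to 0.300 against 0.674 units, nearly all of it Sct, which encodes secretin. Members had a median of 23414 UMIs and a mitochondrial share of 7.36%, against 24340 UMIs and 7.62% in the other proximal cells. One measure of RNA makeup did differ. Ribosomal protein genes took a median 13.6% of the signal in the class and 9.57% in the other proximal cells, with 13.7 against 7.84% in set 0 and 13.6 against 10.7% in set 1.

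The 2 sets held the class at different shares. It made up 3.17% of set 0 (188 of 5933 cells, interval 2.74 to 3.65%) and 4.39% of set 1 (225 of 5120 cells, 3.85 to 4.99%). Among proximal enterocytes alone the shares were 8.24% (7.15 to 9.45%) and 9.64% (8.48 to 10.9%), and these intervals overlap. All such intervals cover counting error only.

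Reg1 defined most members. Its level over the 413 cells ran from 0 to 271 units with a median of 7.90 and a mean of 22.1, and its quartiles were 0.454 and 32.0 units. Ctrb1 ran from 0 to 140 units with a median of 0 and a mean of 5.03. Reg1 alone occurred in 238 members (57.6%), Ctrb1 alone in 93 (22.5%) and both in 82 (19.9%). The split differed between sets: Ctrb1-only cells were 21 of 188 members in set 0 (11.2%) and 72 of 225 in set 1 (32.0%). Mean Ctrb1 was 2.47 units in set 0 and 7.17 in set 1, whereas mean Reg1 was 23.0 and 21.3.

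**Figure D1:**
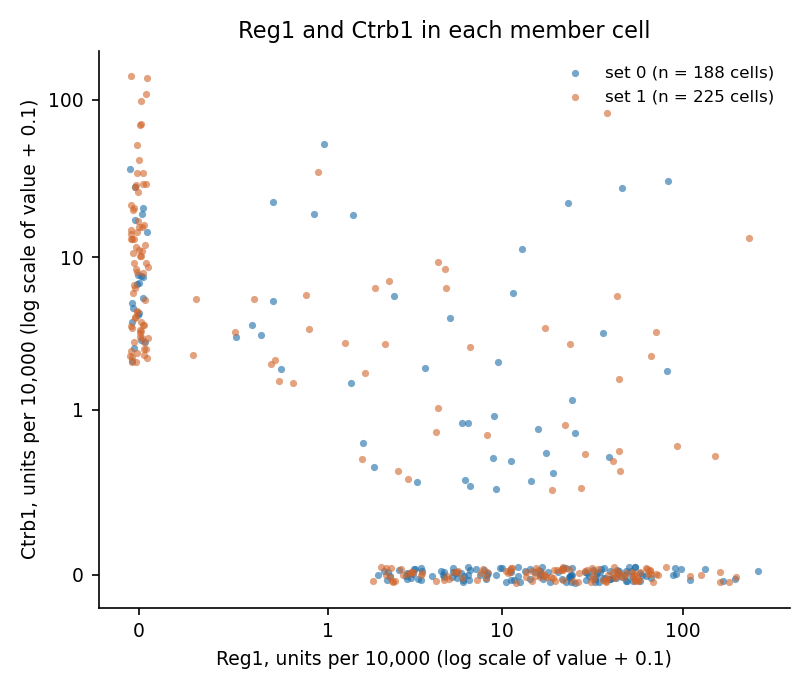
Reg1 (x axis) and Ctrb1 (y axis) in each member, in units per 10,000 on log scales of the value plus 0.1, with small random offsets, coloured by set. Most cells lie along one axis: 238 had Reg1 alone, 93 had Ctrb1 alone and 82 had both.

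Transcripts of the pair were concentrated but not confined here. The class held 3.74% of kept cells, 68.3% of the Reg1 UMIs (23627 of 34605) and 40.9% of the Ctrb1 UMIs (4734 of 11576). Another 387 kept cells reached 2 units of Reg1 and Ctrb1 outside the class. Of these, 333 had Fabp1 under 100 units, 157 had Mki67 or Top2a, 26 reached the Fabp6 limit, 9 the Afp limit and 9 the goblet limit, and a cell could fail several clauses. After thinning every cell to 8000 UMIs, Reg1 was seen in 73.1% of members and 4.56% of the other proximal cells, shares that the rule itself set through its minimum of 2 units. It was seen in 3.57% of cells over both the Afp and the Fabp6 limit (interval 2.40 to 5.08%). These cells were taken as a rough gauge of free RNA. Whether their Reg1 was free RNA or their own was not tested. Of those 814 cells, 786 were in set 0 and 28 in set 1, so the gauge rests almost wholly on set 0. Without thinning the 3 Reg1 shares were 77.5, 11.0 and 9.71%, at median depths of 23414, 24340 and 24116 UMIs. Cells over the goblet limit had Reg1 in 9.70% after thinning (interval 5.64 to 15.3%) and in 14.6% without it, at a median of 21082 UMIs. Thinned Ctrb1 was seen in 37.3, 3.43 and 0.615% of the members, the other proximal cells and the cells over both the Afp and the Fabp6 limit. Unthinned, the Ctrb1 shares were 42.4, 7.47 and 1.97%.

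Levels just inside and just outside the limits are given without a test. The 28 members at 2 to 2.5 units of Reg1 and Ctrb1 averaged 1.85 units of Cym, 4.37 of Krt19 and 0.224 of Lgmn. The 49 proximal cells just outside, at 1.5 to 2 units, averaged 0.867, 4.33 and 0.321. Of cells past the Reg1 and Ctrb1 minimum, the 20 with Fabp1 just inside its limit (100 to 110 units) averaged 2.77 units of Cym, and the 14 just outside (90 to 100 units) averaged 3.14.

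Against the 4201 other proximal enterocytes, the class had higher levels of Cym, Cldn15, Krt19 and Gstm3 and lower levels of Gpx3, Lgmn, Bst1 and Enpp3. All 16 lysosomal and endocytic genes and 13 of 14 brush border hydrolases measured were lower, beside 48.9% of all genes. Of 2569 genes with a mean of at least 0.5 units in either class, 16 were at least 2-fold higher (0.623%) and 39 at least 2-fold lower (1.52%), the rule genes Reg1, Ctrb1, Fabp6 and Afp included. All 55 (2.14% in either direction) had the same sign in both sets, 34 passed 2-fold in both, and the median log2 ratio of all genes was 0.01. In set 0 alone 98 genes passed 2-fold and in set 1 alone 33. Within cells whose ribosomal protein share was 12% or more, a restriction chosen after seeing the data, 16 genes passed (5 higher, 11 lower), 12 of them among the 55.

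Cym stood first among the genes that were higher. It encodes chymosin, a milk-clotting aspartic protease of the young stomach. It averaged 1.82 units in the class (1.85 in set 0, 1.80 in set 1) and 0.254 in the other proximal cells (0.241 and 0.267). Summed over cells, 2087 UMIs gave 1.86 units (exact Poisson interval 1.78 to 1.94), and the summed log2 ratio was 2.89 (2.80 to 2.97). The ratio was 2.89 in set 0 and 2.70 in set 1. The distributions overlapped: the quartiles of members were 0 and 2.04 units with a highest cell at 41.6, and 25.6% of the other proximal cells had a Cym UMI against 65.4% of members. In mid-region cells Cym averaged 0.0438 units.

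S100g encodes calbindin-D9k, the vitamin D-dependent calcium carrier of the duodenum. It averaged 9.42 units against 3.76 (log2 ratio 1.32). Set 0 had 14.0 against 4.38 units and set 1 had 5.62 against 3.15, so that set 0 was higher in both classes and the log2 ratio was 1.67 in set 0 and 0.83 in set 1. The creatine kinase gene Ckb averaged 4.87 against 2.39 units, with a log2 ratio of 1.36 in set 0 and 0.40 in set 1.

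Krt19, a keratin of simple epithelia, averaged 5.72 against 1.68 units (log2 ratio 1.76). Cldn15, a claudin which forms cation pores, averaged 1.27 against 0.363 units (1.78), and the sealing claudin Cldn3 averaged 1.18 against 0.474 (1.30). Dmbt1, a secreted scavenger receptor glycoprotein, averaged 2.89 against 1.04 units (1.47). Pigr, which carries polymeric immunoglobulins across the epithelium, averaged 0.594 against 0.218 (1.40), and Pglyrp1, a peptidoglycan-binding protein, 1.15 against 0.454 (1.32). Lypd8, an anchored protein that holds bacteria off the epithelium, averaged 45.7 against 27.0 units (0.76). Each of these 7 genes was higher in the class in both sets, which the choice of genes required of all but Lypd8. Phgr1 (log2 ratio 1.53), the calcium-binding S100a6 (1.24), the nuclear receptor Nr2e3 (1.05), Aldh1a7 (1.01) and the mitochondrial carrier Ucp2 (0.99) completed the higher genes named by rule, with Gstm3 below. Of the 15 higher genes named by rule only Cym and Dmbt1 passed 2-fold among cells with a ribosomal protein share of 12% or more, where the others had log2 ratios of 0.40 to 0.98. Of the 13 genes on the list of antimicrobial and mucosal defence, 2 were measured at 0.5 units or more, both higher and 1 past 2-fold, and 6 had no UMI in the class.

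Gpx3, the secreted glutathione peroxidase, led the genes that were lower. It averaged 0.936 units in the class and 4.61 in the other proximal cells (log2 ratio -2.29), with 1.33 against 7.05 in set 0 and 0.604 against 2.19 in set 1. Lgmn, the lysosomal protease legumain, averaged 0.232 against 1.14 units (-2.25). Its ratio was -2.63 in set 0 and -1.15 in set 1, where the other proximal cells had 0.415 units against 1.87 in set 0. Bst1, a cell-surface NAD hydrolase (-2.04), Enpp3, an ectonucleotidase (-1.99), Mfge8, a milk fat globule protein (-1.95), Gatm, the first enzyme of creatine synthesis (-1.86), Trf, transferrin (-1.76), the receptor gene Csf1r (-1.72), Bex4 (-1.71) and the peptidase Naaladl1 (-1.70) followed. The choice of these 10 genes required a lower level in both sets. Gatm (-0.37), Enpp3 (-0.68) and Trf (-0.88) were within 2-fold among cells with a ribosomal protein share of 12% or more.

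**Figure D2:**
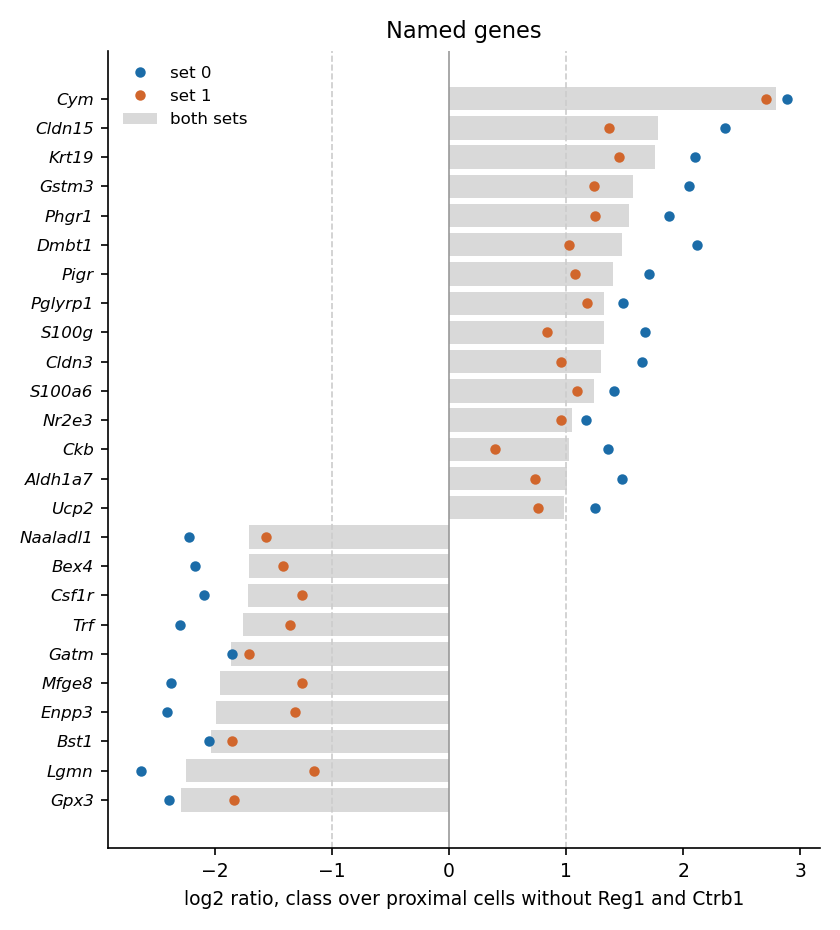
Log2 ratio of the mean level in the class over proximal cells without Reg1 and Ctrb1 (x axis) for the 15 genes most higher and the 10 most lower (y axis), as grey bars for both sets together and points for each set. The 25 genes were chosen to have the same sign in both sets. Set 0 usually lies farther out, as for Lgmn at -2.63 and -1.15.

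Cells with more Reg1 and Ctrb1 had more Cym and less Lgmn, and the change began below the limit of the rule. Proximal cells fell into bins of 0, above 0 to 2, 2 to 5, 5 to 10, 10 to 50, and 50 or more units of Reg1 and Ctrb1, with 3469, 732, 100, 69, 183 and 61 cells. Mean Cym in these bins was 0.220, 0.415, 1.03, 1.90, 1.94 and 2.67 units. Mean Lgmn was 1.23, 0.695, 0.400, 0.157, 0.184 and 0.185 units. Most of the fall in Lgmn thus lay below 10 units of Reg1 and Ctrb1. S100g climbed from 3.52 units in the first bin to 11.3 in the last, Onecut2 from 0.900 to 1.94 and Pdx1 from 0.0698 to 0.240. Gpx3 was 4.96 units in the first bin and 0.621 in the last, and Fabp2, the intestinal fatty acid binding protein, 325 and 220 units. Cym did not climb at every step within set 1, where the 5 to 10 unit bin of 27 cells had 2.63 units and the 2 above it 1.88 and 2.05.

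**Figure D3:**
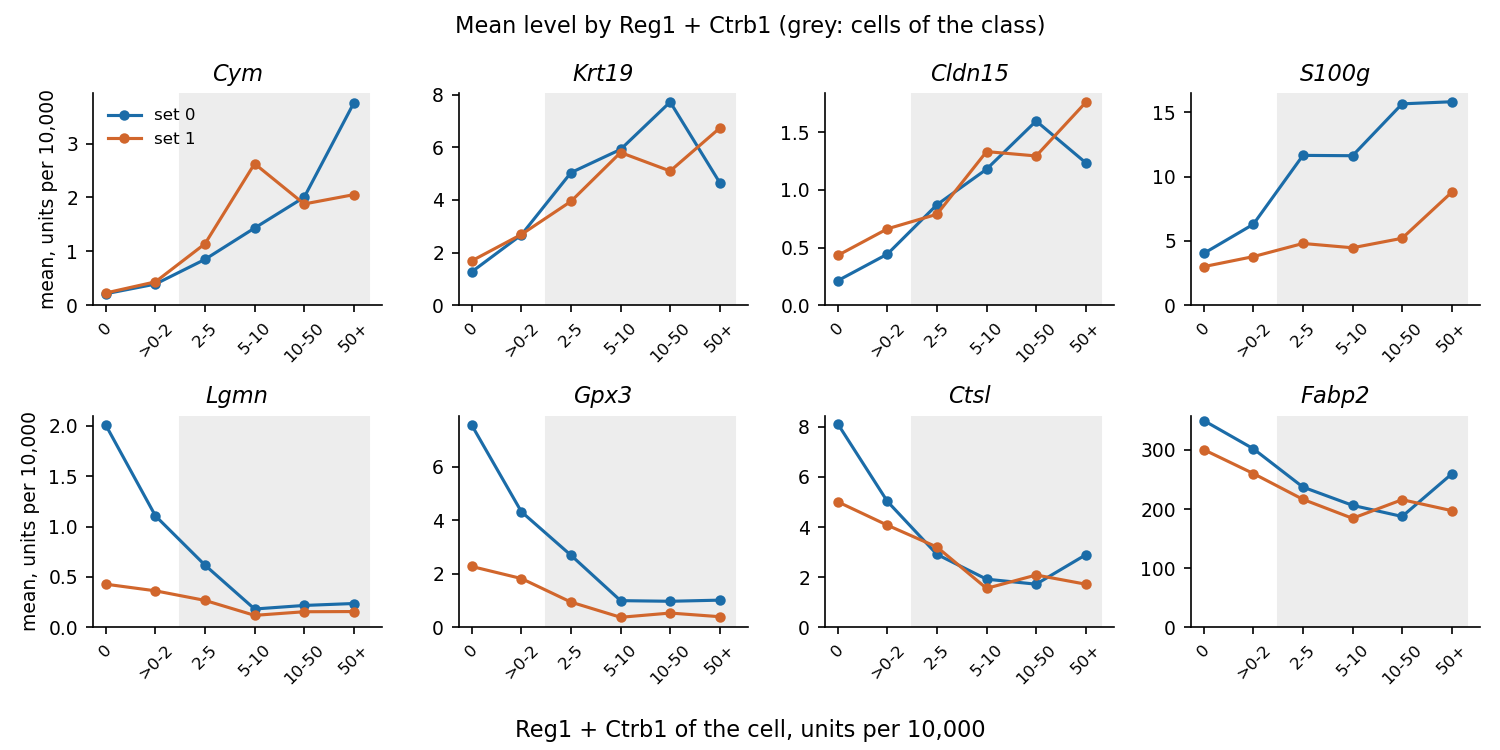
Mean level of 8 genes in units per 10,000 (y axes, from 0) in proximal enterocytes binned by Reg1 and Ctrb1 (x axes), with a line for each set and the class shaded grey. Cym, Krt19, Cldn15 and S100g were higher and Lgmn, Gpx3 and Ctsl lower in the bins of the class than at 0 units, and much of the step lay between 0 and 10 units.

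Reg1-only and Ctrb1-only members differed in a small share of genes. Of 2564 genes, 8 were at least 2-fold higher (0.312%) and 10 at least 2-fold lower (0.39%) in the 238 Reg1-only cells than in the 93 Ctrb1-only cells. These counts include Reg1 and Ctrb1 themselves, whose ratios were fixed by the split. Glutathione transferases were among the higher genes: Gsta4 averaged 0.677 against 0.201 units (log2 ratio 1.70) and Gsta1 3.23 against 1.40 (1.20). S100a6 averaged 2.02 against 0.652 units, Dmbt1 3.27 against 1.46 and S100g 11.0 against 5.00. Within each set S100g stayed below 2-fold, with log2 ratios of 0.70 in set 0 and 0.82 in set 1. Bex4 was 1.14 against 2.93 units and the selenoprotein Selenom 0.602 against 1.34. These 7 genes were picked from those with the same sign in both sets, and 72 of the 93 Ctrb1-only cells came from set 1. Cym averaged 1.85 units in Reg1-only, 0.910 in Ctrb1-only and 2.76 in cells with both, yet in set 0 the first 2 were close, at 1.76 and 1.59. Reg3b, a bactericidal lectin of the Reg family, averaged 0.365 units in Reg1-only, 0.00924 in Ctrb1-only and 0.838 in cells with both. In Ctrb1-only cells it had 0 and 0.0119 units in set 0 and set 1. Mean Reg3b was thus higher in cells with both than in Reg1-only cells, whereas mean Reg1 was lower, at 19.9 against 31.5 units. How the 2 genes relate cell by cell was not measured. Pdx1 averaged 0.223 units in Reg1-only, 0.0891 in Ctrb1-only and 0.132 in cells with both.

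The rest of the Reg family was scarce. Reg2, the neighbour of Reg1, had no UMI in the class, which allows up to 0.00268 units. Reg3b averaged 0.379 units against 0.250 in the other proximal cells, with 0.471 against 0.419 in set 0 and 0.301 against 0.0829 in set 1. Reg3g averaged 0.0787 against 0.0972 units, and its summed ratio had an interval that held 0 (-0.59 to 0.05). Of the other pancreas-type proteins, 2 reached 0.5 units in either class, and both were lower. Cela1, an elastase, averaged 0.254 against 0.614 units, and the trypsin inhibitor Spink1 6.08 against 10.3. Pnliprp2, a pancreatic lipase-related protein, was under 0.5 units in both classes and averaged 0.160 against 0.0688. Its levels were 0.0604 against 0.0452 units in set 0 and 0.244 against 0.0922 in set 1.

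Lysosomal and endocytic genes were lower as a list. Of 16 measured at 0.5 units or more, all 16 were lower than in the other proximal cells, 3 of them past 2-fold, with a median log2 ratio of -0.54 (-0.68 in set 0, -0.40 in set 1) beside 0.01 for all genes. Beyond Lgmn these were Ctsl, cathepsin L, at 2.21 against 6.23 units, and Dab2, an adaptor of endocytic receptors, at 0.508 against 1.63. The receptor genes Cubn and Amn averaged 0.686 against 1.31 and 4.06 against 5.41 units. Fcgrt, the neonatal Fc receptor, averaged 17.3 against 26.0 units. The mid-region cells were higher still for Ctsl (9.36 units), Dab2 (2.77) and Cubn (2.21). Within cells of 12% or more ribosomal protein signal the list median was -0.27.

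Brush border genes were mostly lower. Of 14 hydrolases 13 were lower and 1 higher, with a median of -0.53 (-0.66 and -0.45 in the sets). Ace, angiotensin-converting enzyme, averaged 1.08 against 2.94 units, and lactase, Lct, 3.29 against 4.32. The exception was Anpep, aminopeptidase N, at 5.07 against 3.37 units. Of 15 structural genes 14 were lower (median -0.34), such as Pls1, plastin 1, at 1.88 against 3.40 units and the protocadherin Cdhr5 at 3.47 against 5.76. Myo1a, the microvillus motor, was higher at 0.937 against 0.658 units. Of the hydrolases and structural genes, only Enpp3, Naaladl1 and Ace passed 2-fold. In cells of high ribosomal protein share the medians were -0.17 and -0.19.

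Lipid absorption genes were lower by small steps. Of 20 genes 17 were lower and 3 higher (median -0.38). Apoa4 averaged 87.1 against 142 units, Fabp2 209 against 317, and Mttp, which loads lipid onto apolipoprotein B, 7.34 against 9.90. Cd36, a fatty acid receptor, passed 2-fold, at 0.382 against 0.795 units. Mogat2 and Sar1b were nearly level, at 6.41 against 6.27 and 4.51 against 4.08. The list median was -0.13 in cells of high ribosomal protein share. Cholesterol synthesis genes were lower in 9 of 10 (median -0.33), and this median was -0.55 in the same restricted cells.

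Retinoid and xenobiotic enzymes leaned the other way. Of 13 genes 10 were higher and 3 lower (median 0.16). Gstm3 averaged 3.11 against 1.04 units (log2 ratio 1.57) and Gstm1 2.62 against 1.43. Aldh1a1, which makes retinoic acid, averaged 1.11 against 0.578 units, with ratios of 1.68 in set 0 and 0.48 in set 1. Rbp2, the cellular retinol carrier, was level at 192 against 196 units. Fatty acid oxidation genes were also balanced, 9 higher and 8 lower of 17 (median 0.04), and iron, zinc and calcium genes 6 and 6 of 12. In fructose and glucose metabolism the directions split: Khk, ketohexokinase, averaged 0.957 against 0.579 units, and Fbp1, a gluconeogenic enzyme, 0.734 against 2.03. Liver-type serum proteins were lower in 3 of 3, Trf, Ttr and Serpina1a. Ileal bile acid and distal genes were lower in 8 of 8 (median -0.40), and nutrient transporters in 7 of 9 (-0.22). The next lists lay nearer to the 48.9% of all genes that were lower. Secretory pathway and unfolded protein response genes were lower in 11 of 17 (-0.15) and interferon and MHC class I genes in 4 of 6 (-0.24), though the latter median was 0.16 in cells of high ribosomal protein share. Amino acid and urea cycle enzymes were split, 7 higher and 6 lower (0.05), with 0.20 in set 0 and -0.06 in set 1.

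**Figure D4:**
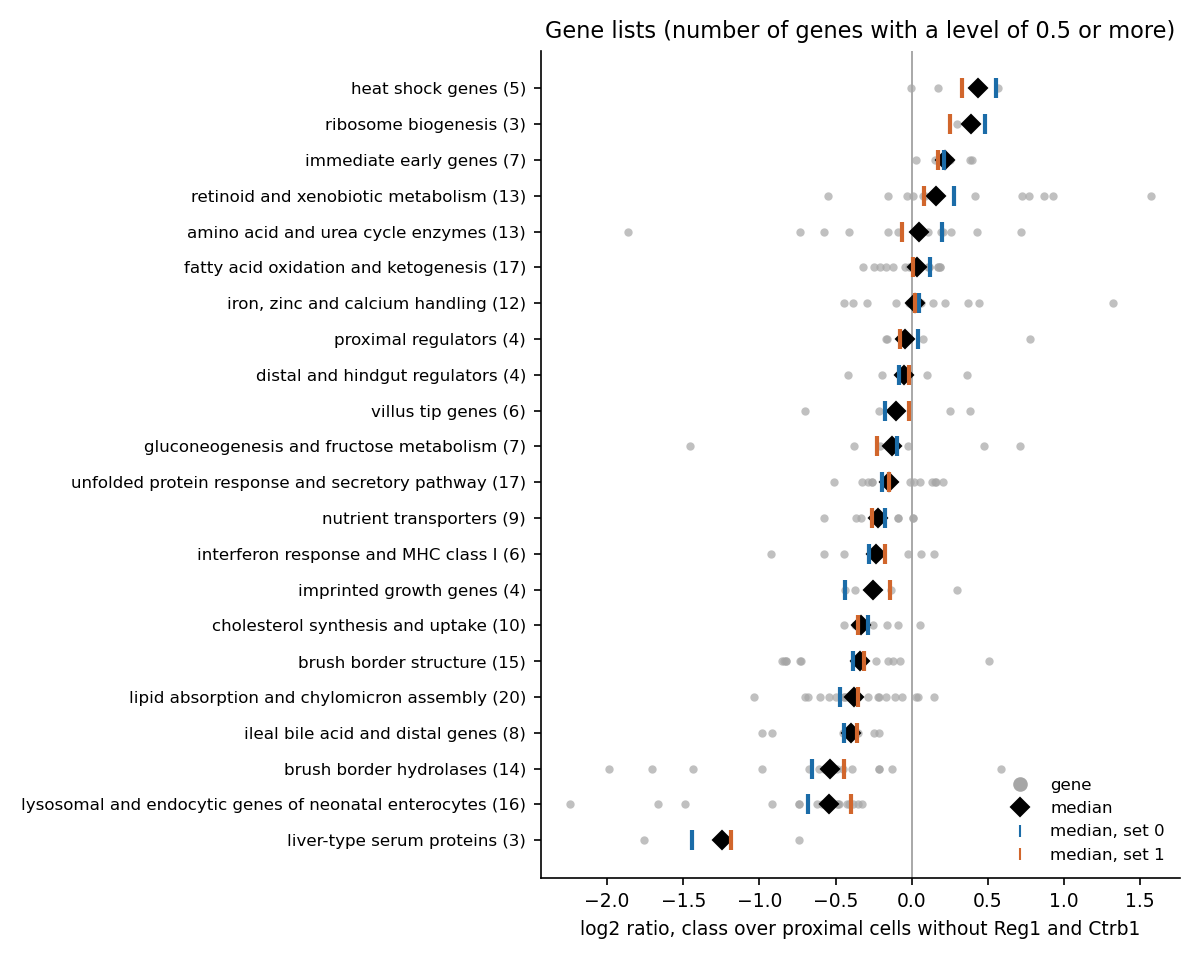
Log2 ratio of the class over proximal cells without Reg1 and Ctrb1 (x axis) for each gene list (y axis, with the number of genes measured at 0.5 units or more). Grey points are genes, diamonds the list medians, and coloured ticks the medians of set 0 and set 1. Lysosomal and endocytic genes, all 16 left of 0, and 13 of 14 brush border hydrolases lie low, and retinoid and xenobiotic enzymes centre at 0.16.

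Ribosomal protein genes moved with these lists. Of 82 measured, 81 were higher in the class and 1 lower, with a median of 0.48 (0.63 in set 0, 0.34 in set 1) and none past 2-fold. Ribosome biogenesis genes were higher in 3 of 3 (0.39). Heat shock genes were higher in 4 of 5 (median 0.44) and immediate early genes in 7 of 7 (0.22). The 3 medians were near 0 among cells with a ribosomal protein share of 12% or more, at -0.01, 0.02 and 0.01. The part of ribosomal content in the gene differences was not tested, but ratios could be read within strata of it. The strata were under 8% (40 members, 1590 other proximal cells), 8 to 12% (102 and 1351) and 12% or more (271 and 1260). The Cym ratio was 2.60, 2.36 and 2.31 in them. That of Krt19 was 1.91, 1.32 and 0.85, and that of Cldn15 2.42, 1.36 and 0.97. Lgmn had -1.85, -1.17 and -1.02 and Gpx3 -1.68, -1.15 and -1.75. Onecut2 lay between 0.64 and 0.97 and Pdx1 between 1.09 and 1.49, whereas Krt19, Cldn15 and Lgmn were nearer to 0 at high ribosomal share. Strata of Fabp1 (100 to 200, 200 to 300, and 300 or more units) gave 2.27 to 2.78 for Cym, 1.18 to 1.93 for Krt19 and -2.27 to -1.83 for Lgmn. The genes past 2-fold at high ribosomal share were Reg1, Ctrb1, Reg3b (0.534 against 0.0991 units), Cym and Dmbt1 on the higher side. On the lower side Bex4 (-1.78), Gpx3 and Meltf (-1.67) were the farthest.

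**Figure D5:**
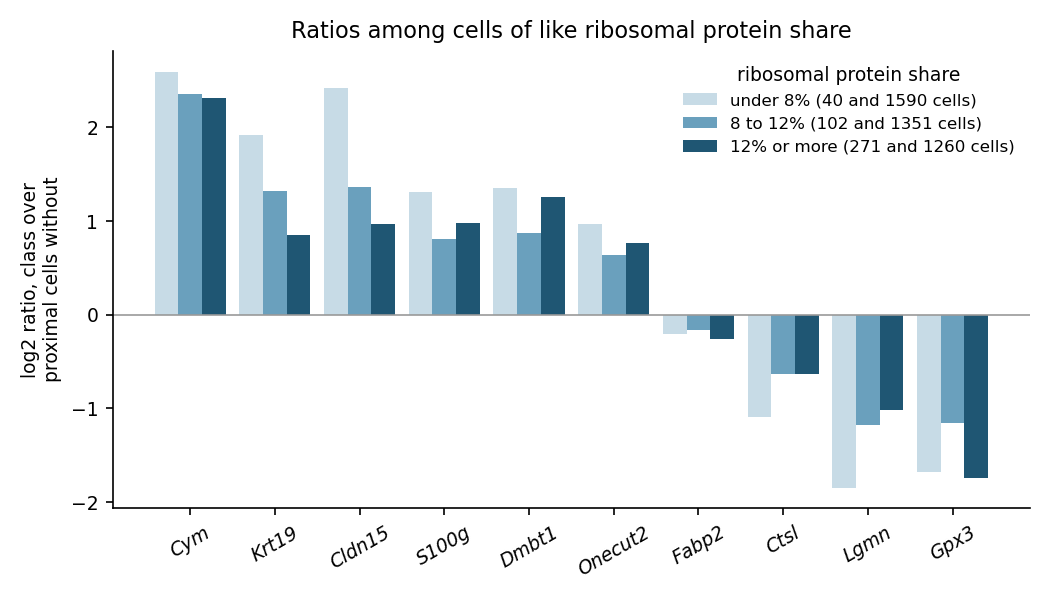
Log2 ratio of the class over proximal cells without Reg1 and Ctrb1 (y axis) for 10 genes (x axis) within 3 strata of ribosomal protein share, with the cell numbers of each class in the key. Cym stays between 2.31 and 2.60, and Krt19 drops from 1.91 to 0.85 from the lowest to the highest stratum.

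Mid-region enterocytes, 623 cells, lay farther from the class. Of 2751 genes, 97 were at least 2-fold higher in the class (3.53%) and 169 at least 2-fold lower (6.14%). Cym (log2 ratio 5.09), Cldn15 (4.45), Krt19 (3.94), Dmbt1 (3.38), Pigr (3.18) and Onecut2 (3.01) led the higher genes. Fgf15, the ileal hormone that restrains bile acid synthesis, averaged 0.0653 against 1.37 units (-4.19). In all, 9.67% of the genes passed in one direction or the other. Lgmn (0.232 against 4.41 units), Gpx3 (0.936 against 16.5) and the guanylin gene Guca2a (0.244 against 3.36) were lower as well. Set 0 gave 459 of the mid-region cells and set 1 gave 164, whereas the class had 188 and 225, so pooled ratios mix the sets. In set 0 and set 1 the log2 ratios were -4.21 and -2.61 for Lgmn. They were -3.92 and -3.31 for Gpx3 and -3.95 and -1.88 for Guca2a. For Cym, Onecut2 and Lgmn the other proximal cells lay between the class and the mid-region cells. When Fabp6 and Afp had to be under 2 units, so that cells with 2 or more units of Fabp6 counted as mid-region, the numbers were 55 higher and 114 lower. In set 1 alone they were 62 and 114.

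Against all 10640 other kept cells, 21 of 2686 genes were at least 2-fold higher (0.782%) and 72 at least 2-fold lower (2.68%), 3.46% in all. Cym (1.89), Dmbt1 (1.52), Gstm3 (1.48), Aldh1a1 (1.45), Onecut2 (1.37) and Cda, cytidine deaminase (1.34), were the highest. Fabp1 itself, a rule gene, averaged 239 against 150 units. The lower genes included those of cells that the rule kept out, such as Gip (-5.05), a hormone of enteroendocrine cells, Tff3 (-3.85) and Agr2 (-3.88) of secretory cells and Pclaf (-3.35) of dividing cells. Krt19 was not among the highest here.

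Tet3, the gene deleted in one genotype, averaged 0.201 units in the class and 0.219 in the other proximal cells, from 223 and 2427 UMIs. Set 0 had 0.238 and 0.249 units, and set 1 had 0.169 and 0.190. Summed over the other proximal cells, the intervals were 0.235 to 0.261 units in set 0 and 0.174 to 0.198 in set 1. A 3' tag reads outside the deleted exon, and whether the allele changes the 3' signal was not tested. These levels were therefore not used to give either set a genotype.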

How the data were processed

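The deposited table gives 25663 genes in 11871 cells as signal, a cell's transcripts scaled by the authors to a total of 10,000 and not log transformed, as its values show. Per the submitters' processing notes, Salmon 0.14.1 with alevin, Scanpy 1.6.0 and the GRCm38 (mm10) build were used. No column belonged to an unmapped sample. The members and gene lists were chosen with earlier results of these data known. UMI numbers were recovered by taking a cell's most frequent non-zero value as 1 UMI. A median 94.9% of a cell's values were then whole within 0.01 (lowest 84.3%). Kept cells had a median of 23048 UMIs (1152 to 250631), and no doublets were removed.

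Class means were compared as log2 ratios after adding 0.01 units, over genes of at least 0.5 units in either class, with 2-fold as the limit and no test. Named genes are, per comparison, the 15 highest and 10 lowest ratios with 1 sign in both sets, leaving out rule, mitochondrial, ribosomal protein, haemoglobin and sex-linked marker genes. Up to 4 genes per list with the largest ratios could also be named, and further list members were picked after their values were seen. Shares of cells were read after thinning to 8000 UMIs. Python 3.11.15, NumPy 2.4.6, SciPy 1.17.1 and pandas 2.3.3 were used. The ratio calls were checked on simulated Poisson counts with preset folds beyond 2-fold. The simulation had no added spread between cells, no difference between sets and no choice of cells by level. It therefore checks only the calculation.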

Additional observations from a re-analysis of the deposited data

How the results depend on the processing

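The share of kept cells in the class depended on its limits. It was 2.83 and 2.21% with a Reg1 and Ctrb1 minimum of 5 and 10 units, 4.59 and 2.23% with a Fabp1 minimum of 50 and 200 units, 3.17% in set 0 alone and 4.39% in set 1 alone. Counts of genes past 2-fold depended most on the minimum level. At 0.2 units they were 183 against all other cells, 96 against the other proximal cells and 491 against mid-region cells. With no minimum level they were 773, 263 and 1184. At 1 unit they were 59 against all other cells and 176 against mid-region cells. Against the other proximal cells 98 genes passed in set 0 alone, 33 in set 1 alone, and 16 among cells with a ribosomal protein share of 12% or more, an alternative added after seeing the data. The cause of the set difference was not tested. Against mid-region cells 169 passed with Fabp6 and Afp below 2 units and 176 in set 1 alone. Under the other alternatives run, which kept or dropped shared barcodes, limited mitochondrial share, left out the cells with the most UMIs, summed UMIs, or changed the total or the pseudocount, each of these values stayed within its interval or within 1.5 times. No recorded ratio past 2-fold changed sign. The sign of a smaller gene ratio turned in 123 of 4075 comparisons with an alternative, and that of a list median in 13 of 391. No paired analysis was possible because the columns carry no sample. With 1 table and no replicates, the intervals cover counting error only, and differences between embryos cannot be told apart from those between cells.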
